A study of Mus musculus with 12 samples.

Results

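The Toll-like receptors are membrane proteins with which macrophages sense parts of microbes. Receptors at the cell surface bind bacterial lipids, lipoproteins and flagellin, and receptors in endosomes bind nucleic acids. Binding recruits adaptors such as Myd88 and Ticam1, which switch on NF-kappa B and interferon regulatory factors, and macrophages are among the cells known for carrying many of these receptors at once. The 10 receptors considered were Tlr1, Tlr2, Tlr3, Tlr4, Tlr5, Tlr6, Tlr7, Tlr8, Tlr9 and Tlr13. Each was taken from a probe set annotated to that symbol alone, the brightest one where a symbol had several. Of the 10, 9 were measured, each by 1 probe set, out of 19938 genes in all. Tlr5, the flagellin receptor, is not analysed here.

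RNA came from macrophages grown out of bone marrow of C3H/HeN mice, a strain that responds to lipopolysaccharide (LPS), the bacterial cell wall component sensed by Tlr4. The marrow cells were expanded with IL-3, IL-6 and stem cell factor in medium containing M-CSF, and adherent cells were used, so the population was selected by culture and not by sorting. Cells received 100 ng/ml LPS from Escherichia coli for 45 min, for 270 min, or not at all (0 min, unstimulated). In every culture, unstimulated ones included, 200 µM 4-thiouridine was present for the last 35 min. RNA that had taken up this uridine analogue was purified as nascent RNA, and the RNA before purification is called total RNA. The 6 groups were nascent RNA at 0, 45 and 270 min and total RNA at 0, 45 and 270 min. Each group had 2 arrays, from 2 independent experiments, and a nascent and a total array of the same time and experiment came from 1 culture. How many mice gave a culture was not stated.

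Values are log2 of deposited array intensities that the authors had normalised with RMA. A change is read relative to the other genes on the same arrays, and in such bulk RNA fewer cells of a type and less RNA per cell cannot be told apart. Levels are compared only within a receptor, because probe sets differ in brightness. The 95th percentile of 1027 olfactory receptor genes on each array, 6.18 to 6.80 over the 12 arrays, served as the background level. Paired arrays of a group correlated at r = 0.981 to 0.989 across genes. The interquartile range of an array was 2.24 to 3.02, and the 2 unstimulated nascent arrays, at 2.64 and 3.00, were wider than the 4 stimulated nascent arrays, at 2.24 to 2.50. All 8 macrophage markers, among them Adgre1, Csf1r and Cd68, lay above background in all 6 groups. Their summed intensity was 12872 to 15073 in nascent RNA at 270 min, against 23943 to 25408 at 0 min, and 29093 to 35838 in total RNA at 270 min, against 36546 to 41973 at 0 min. The markers did not move together: at 270 over 0 min 6 of the 8 were called lower and 2 higher in nascent RNA, and 3 lower and 0 higher in total RNA by limma. Of all genes, 8.87% were called higher and 14.2% lower in nascent RNA, and 7.02% and 12% in total RNA. These shares also stand behind the marker counts at 270 over 0 min below. None of 3 B cell markers lay above background in any group, and of 6 neutrophil markers only S100a8 did, in total RNA at 270 min. Of 4 T cell markers Cd3e was above background in every group and Cd8a in total RNA at 45 min. Zbtb46, of 4 dendritic cell markers, was above it in every group but nascent RNA at 270 min, Siglech, of 3 plasmacytoid dendritic cell markers, in total RNA at 0 min, and Epor, of 2 erythroid markers, in nascent RNA at 0 min and total RNA at 45 min. Of 4 mast cell markers, Kit was above background in every group, Cpa3 in total RNA at all 3 times and Hdc in nascent RNA at 270 min and total RNA at 45 and 270 min. At 270 over 0 min 2 of the 4 were called higher in each fraction, and the list's summed intensity was 514 to 628 in nascent RNA at 270 min against 257 to 314 at 0 min, and 881 to 1012 in total RNA at 270 min against 279 to 746 at 0 min. In the same comparison 1 neutrophil marker was called higher in each fraction. In total RNA 1 plasmacytoid dendritic cell marker was called higher, and in nascent RNA 1 dendritic cell marker was called lower. No B cell, T cell or erythroid marker was called there. The part of these cell type markers in the receptor results was not tested.

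RefSeq start-site windows (GRCm38.p6, 250 bases before to 50 after a start) were at hand for 7 of the receptors, in 9 windows. They are shown for 4 receptors that stand for the time courses described below: Tlr2 with an early rise, Tlr6 and Tlr3 with a late rise, and Tlr13 with a late fall. The 3 motifs searched on both strands were the kappa B consensus bound by NF-kappa B, the core of the interferon-stimulated response element (GAAA, any 2 bases, GAAA) and the core GAGGAA of the myeloid factor PU.1. Capitals mark the matches. Each sequence runs 5′ to 3′ along the gene's strand, which is the minus strand for Tlr2, Tlr6 and Tlr3 and the plus strand for Tlr13. The windows lie at chr3:83841559-83841858 for Tlr2, chr5:64959117-64959416 for Tlr6, chr8:45410331-45410630 for Tlr3 and chrX:106143025-106143324 for Tlr13.
Tlr2: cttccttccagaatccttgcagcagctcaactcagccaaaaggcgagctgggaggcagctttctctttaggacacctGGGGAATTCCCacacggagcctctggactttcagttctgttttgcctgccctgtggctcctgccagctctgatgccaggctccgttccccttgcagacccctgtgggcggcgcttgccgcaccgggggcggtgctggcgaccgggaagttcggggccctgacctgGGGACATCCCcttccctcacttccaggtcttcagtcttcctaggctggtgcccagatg
Tlr6: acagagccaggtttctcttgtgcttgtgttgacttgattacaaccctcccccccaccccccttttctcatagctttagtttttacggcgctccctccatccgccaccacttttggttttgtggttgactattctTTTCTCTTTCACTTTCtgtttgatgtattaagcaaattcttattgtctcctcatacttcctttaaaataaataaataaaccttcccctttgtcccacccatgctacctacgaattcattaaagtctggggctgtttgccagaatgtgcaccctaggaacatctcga
Tlr3: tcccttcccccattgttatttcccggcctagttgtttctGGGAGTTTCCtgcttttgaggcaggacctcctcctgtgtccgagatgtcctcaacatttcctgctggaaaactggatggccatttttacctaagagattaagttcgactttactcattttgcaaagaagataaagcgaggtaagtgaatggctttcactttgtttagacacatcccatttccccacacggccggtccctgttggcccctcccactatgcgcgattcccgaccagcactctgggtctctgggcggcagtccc
Tlr13: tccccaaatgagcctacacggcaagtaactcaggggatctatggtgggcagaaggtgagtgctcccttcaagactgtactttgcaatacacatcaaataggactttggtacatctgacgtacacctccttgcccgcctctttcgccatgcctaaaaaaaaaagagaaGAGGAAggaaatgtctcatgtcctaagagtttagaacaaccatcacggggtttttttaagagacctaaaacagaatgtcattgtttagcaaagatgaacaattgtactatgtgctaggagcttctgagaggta

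The Tlr2 window held the kappa B consensus at -172 from the start, as a palindrome that also matched 1 base further upstream, and again at -8. The Tlr3 window held it at -211. That consensus occurs in 4.51% of all 32851 windows of the table. The Tlr6 window held 2 overlapping matches to the interferon element core on the opposite strand, at -116 and -110, a motif found in 3.44% of all windows. The other Tlr6 window and 1 of the 2 Tlr1 windows held none of the 3 motifs. GAGGAA was found in the Tlr13 window at -83 and in windows of Tlr1, Tlr8 and Tlr9, and it occurs in 28.3% of all windows. These matches describe letters in the windows and are not measured binding sites. Tlr4 and Tlr7 are named only.

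By 270 min of LPS most of the measured receptors had changed in nascent RNA. Relative to unstimulated cells, 6 of 9 were higher in nascent RNA at 270 min (Tlr1, Tlr2, Tlr3, Tlr6, Tlr7 and Tlr8), while 8.87% of all genes were called higher. Another 2, Tlr4 and Tlr13, were lower, with 14.2% of all genes lower. A call means an adjusted p below 0.05 in limma, with Benjamini-Hochberg adjustment over all 19938 genes. The median log2 difference of the 9 receptors was 0.96, beside 0.12 for all genes. In total RNA at 270 min, 5 receptors were higher (Tlr1, Tlr2, Tlr3, Tlr6 and Tlr7) and the same 2 lower, against 7.02% and 12% of all genes. There the median was 0.66 for the receptors and 0.07 for all genes.

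After 45 min fewer receptors had changed. In nascent RNA, Tlr1 and Tlr2 were higher and Tlr4 was lower than in unstimulated cells, with 3.05% of all genes higher and 5.88% lower, and the median receptor difference was 0.00, beside 0.11 for all genes. In total RNA only Tlr2 was called, as higher, where 0.662% of all genes were higher and 0.0201% lower. Its median receptor difference was 0.10, beside -0.01 for all genes. Directly compared, 270 min over 45 min gave 4 higher and 2 lower receptors in nascent RNA, with 6.74% and 10.0% of all genes. The same comparison in total RNA gave 3 higher and 2 lower, with 6.64% and 11.5% of all genes. Comparisons with 0 min share the unstimulated arrays, so the 45 and 270 min differences are not independent of each other.

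**Figure D1:**
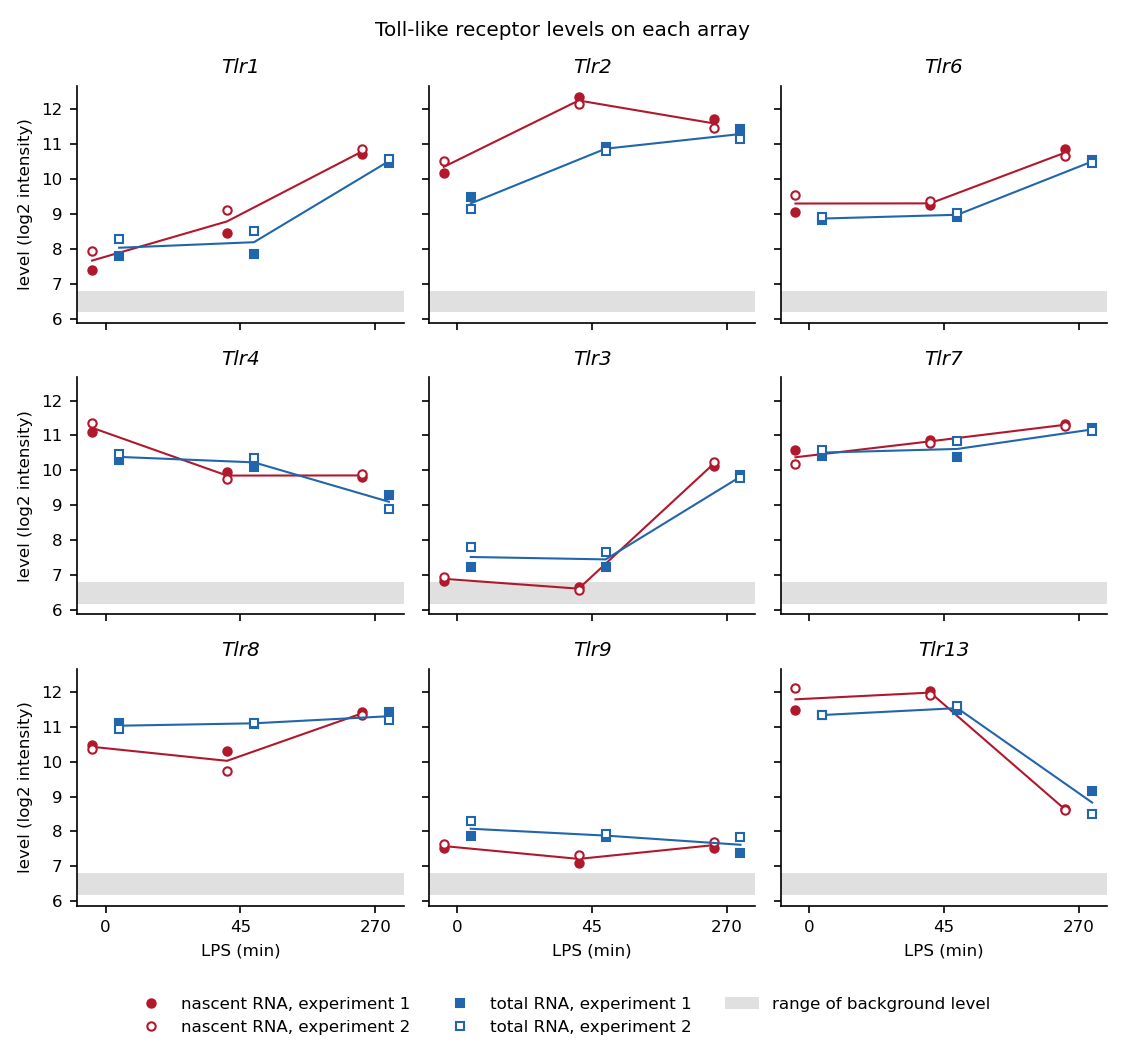
Level (log2 intensity) of each of the 9 receptors on each array against time of LPS (0, 45 and 270 min), in nascent RNA (red circles) and total RNA (blue squares), with lines through the group means and filled and open symbols for experiments 1 and 2. The grey band spans the background level of the 12 arrays, 6.18 to 6.80. Tlr2 was brightest in nascent RNA at 45 min, Tlr1 and Tlr3 at 270 min, and Tlr13 was dimmest at 270 min in both RNA fractions.

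Tlr2, which pairs with Tlr1 or Tlr6 to bind bacterial lipopeptides, was the one receptor that was higher at both times in both RNA fractions. Its nascent level in experiments 1 and 2 was 10.17 and 10.53 at 0 min, 12.36 and 12.14 at 45 min and 11.73 and 11.46 at 270 min. In total RNA it read 9.48 and 9.13 at 0 min, 10.93 and 10.81 at 45 min and 11.44 and 11.14 at 270 min. No array of stimulated cells overlapped the unstimulated ones in either fraction. In nascent RNA the log2 difference from 0 min was 1.90 ± 0.21 (SE from limma, n = 2 arrays each, as in all time comparisons below) at 45 min, or 3.74-fold (adjusted p = 6.08e-05), and 1.25 ± 0.21 at 270 min, or 2.37-fold (adjusted p = 0.000488). In total RNA it was 1.57 ± 0.21 at 45 min (adjusted p = 0.000893) and 1.99 ± 0.21 at 270 min, or 3.97-fold (adjusted p = 1.22e-05).

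Nascent Tlr2 was lower at 270 min than at 45 min by a log2 difference of -0.66 ± 0.21 (adjusted p = 0.0429). That call was lost under quantile scaling (-0.58 and -0.56, adjusted p = 0.0566 and 0.0661). It was also lost when any 1 of the nascent arrays at 270 min (experiment 1: -0.79, adjusted p = 0.0787, experiment 2: -0.52, 0.319) or 45 min (experiment 1: -0.55, 0.273, experiment 2: -0.76, 0.0867) or either total array at 45 min (-0.66, 0.0516 and 0.052) was left out. In total RNA, Tlr2 at 270 min over 45 min was 0.42 ± 0.21 and was not called (adjusted p = 0.188).

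Tlr1, the partner of Tlr2 for triacylated lipopeptides, was highest at 270 min in both fractions. In nascent RNA it read 7.39 and 7.94 at 0 min, 8.46 and 9.11 at 45 min and 10.72 and 10.85 at 270 min. Total RNA gave 7.78 and 8.28 at 0 min, 7.86 and 8.52 at 45 min and 10.46 and 10.57 at 270 min. The 2 nascent arrays of each time stood clear of those of the other times, whereas total levels at 45 and 0 min overlapped. At 270 min over 0 min the log2 difference was 3.12 ± 0.29 in nascent RNA, or 8.72-fold (adjusted p = 3e-06), and 2.48 ± 0.29 in total RNA, or 5.58-fold (adjusted p = 3.44e-05).

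At 45 min nascent Tlr1 was already 1.12 ± 0.29 above 0 min on the log2 scale (adjusted p = 0.028), while the total level differed by 0.16 ± 0.29. The nascent call was lost without the experiment 2 array at 45 min (0.80, adjusted p = 0.298) and without the experiment 1 array at 0 min (0.85, adjusted p = 0.142). At 270 over 45 min the difference was 2.00 ± 0.29 in nascent RNA (adjusted p = 0.000201) and 2.32 ± 0.29 in total RNA (adjusted p = 7.5e-05).

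Tlr6, the partner of Tlr2 for diacylated lipopeptides, changed late and about equally in both fractions. Nascent RNA gave 9.06 and 9.54 at 0 min, 9.25 and 9.36 at 45 min and 10.86 and 10.66 at 270 min. Its total level was 8.83 and 8.90 at 0 min, 8.92 and 9.04 at 45 min and 10.55 and 10.46 at 270 min. All 4 arrays at 270 min lay above all 8 earlier arrays. At 270 min over 0 min Tlr6 rose by 1.46 ± 0.21 in nascent RNA (2.75-fold, adjusted p = 0.000125) and by 1.64 ± 0.21 in total RNA (3.11-fold, adjusted p = 6.2e-05). At 45 min the difference was 0.00 ± 0.21 in nascent RNA and 0.11 ± 0.21 in total RNA. Tlr1 and Tlr6 are close relatives that both lie on chromosome 5, and cross-hybridisation between their probe sets was not tested.

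Tlr4, the receptor for the LPS given to these cells, was lower after stimulation, and nascent RNA was lower at the earlier time while total RNA was called lower at the later one. Its nascent level was 11.09 and 11.35 at 0 min, 9.94 and 9.76 at 45 min and 9.82 and 9.89 at 270 min. In total RNA it read 10.29 and 10.48 at 0 min, 10.09 and 10.37 at 45 min and 9.30 and 8.90 at 270 min. Nascent arrays at 45 and 270 min overlapped each other and lay below both unstimulated arrays, and total arrays at 45 and 0 min overlapped. In nascent RNA the log2 difference from 0 min was -1.37 ± 0.21 at 45 min, or 2.59-fold lower (adjusted p = 0.00107), and -1.37 ± 0.21 at 270 min (adjusted p = 0.000245).

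In total RNA, Tlr4 at 45 min differed from 0 min by -0.16 ± 0.21 (95% interval -0.60 to 0.29), which was not called. At 270 min the total difference was -1.29 ± 0.21, or 2.44-fold lower (adjusted p = 0.000525), and 270 min over 45 min gave -1.13 ± 0.21 (adjusted p = 0.00153). In nascent RNA 270 min over 45 min gave 0.00 ± 0.21 (95% interval -0.44 to 0.45). The response at 45 min, taken as the nascent change minus the total change within cultures, was -1.21 ± 0.28 (adjusted p = 0.0434) and had the same sign in both experiments, at -0.95 and -1.48. Among the responses of all genes at 45 min, 1.04% were called in either direction (95 higher and 113 lower, but 42 and 15 under quantile scaling within each fraction and 56 and 18 over all arrays), and Tlr4 was the 1 receptor among them. The call was lost under quantile scaling within each fraction (-1.33, adjusted p = 0.0572) or over all arrays (-1.30, adjusted p = 0.0525). It was also lost with the arrays unpaired (-1.21, adjusted p = 0.195), without the 45 min culture of experiment 1 (-1.44, adjusted p = 0.296 and 0.292 for its nascent and total array) and without that of experiment 2 (-0.98, adjusted p = 0.649 and 0.644).

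**Figure D2:**
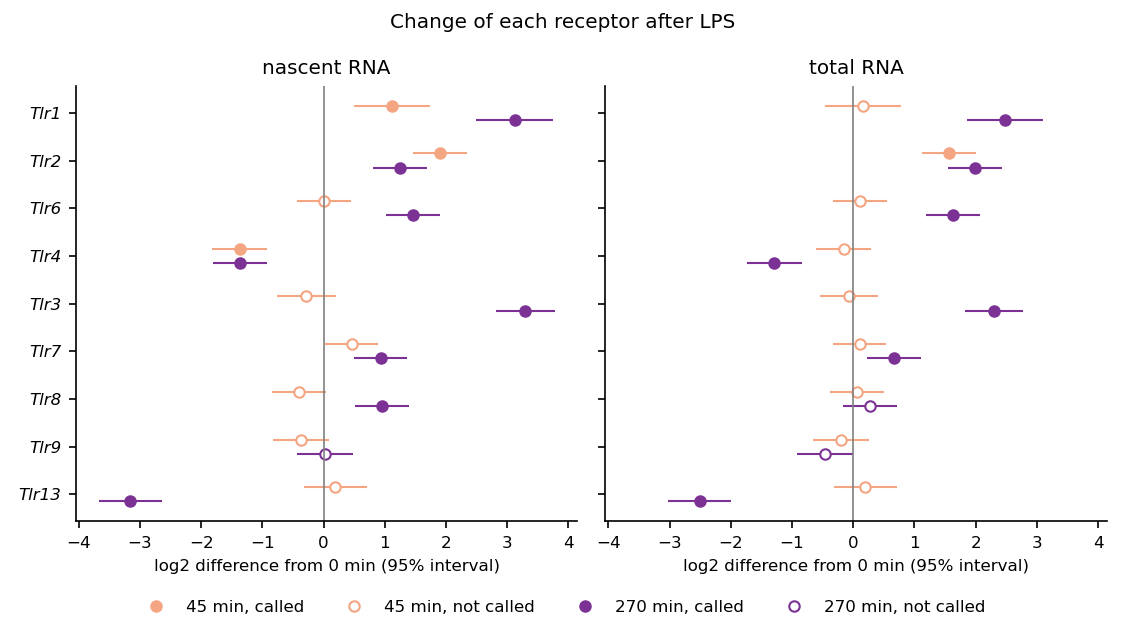
Log2 difference from unstimulated cells of each receptor in nascent RNA (left) and total RNA (right) at 45 min (orange) and 270 min (purple) of LPS, with 95% intervals from limma and filled points for receptors called at an adjusted p below 0.05. In nascent RNA the points at 270 min run from -3.16 for Tlr13 to 3.30 for Tlr3, and in total RNA at 45 min Tlr2 alone is called.

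Tlr3, the endosomal receptor for double-stranded RNA, was close to background in nascent RNA before 270 min and rose late in both fractions. In nascent RNA it read 6.83 and 6.95 at 0 min, 6.65 and 6.56 at 45 min and 10.14 and 10.23 at 270 min. The experiment 2 array at 45 min lay below its background level of 6.76, so 1 of 2 arrays measured Tlr3 there, and it was the one receptor of 9 not above background on both arrays of all groups. Total RNA gave 7.23 and 7.80 at 0 min, 7.24 and 7.66 at 45 min and 9.87 and 9.77 at 270 min. At 270 min over 0 min the log2 difference was 3.30 ± 0.22 in nascent RNA, or 9.82-fold (adjusted p = 1.54e-07), and 2.30 ± 0.22 in total RNA, or 4.93-fold (adjusted p = 6.58e-06). The nascent fold rests on a level near background, and the order of Tlr3 and Tlr1 in nascent RNA was not stable, since their rises in experiment 1 were 3.31 and 3.33. At 45 min Tlr3 was -0.28 ± 0.22 in nascent RNA and -0.07 ± 0.22 in total RNA, neither called.

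Tlr7, a receptor for single-stranded RNA, and its X-linked neighbour Tlr8, which has that role in human, showed smaller differences. The nascent level of Tlr7 was 10.58 and 10.17 at 0 min, 10.88 and 10.78 at 45 min and 11.33 and 11.28 at 270 min. Its total level was 10.42 and 10.59 at 0 min, 10.38 and 10.84 at 45 min and 11.21 and 11.13 at 270 min. Levels at 270 min lay above all earlier arrays in both fractions. Tlr7 rose by 0.93 ± 0.20 in nascent RNA at 270 min over 0 min (1.91-fold, adjusted p = 0.0041).

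In total RNA, Tlr7 at 270 min was 0.66 ± 0.20 above 0 min (adjusted p = 0.035). That call was lost under quantile scaling (0.48 and 0.49, adjusted p = 0.129 and 0.125). Leaving out a total array at 0 min (experiment 1: 0.58, adjusted p = 0.199, experiment 2: 0.75, 0.0783) or 270 min (experiment 1: 0.62, 0.11, experiment 2: 0.70, 0.105), or any nascent array at 45 min (0.66, 0.0516 and 0.0515) or 270 min (0.66, 0.0561 and 0.0563), also ended it. Over 45 min the total difference at 270 min was 0.56 ± 0.20 (adjusted p = 0.0772). It was called in the blocked fit (adjusted p = 0.0399), with dim genes left out (0.0472) and without the experiment 2 total array at 45 min (0.79, 0.0395).

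Tlr8 was higher at 270 min in nascent RNA, and no difference between times was called in total RNA. Nascent RNA gave 10.48 and 10.37 at 0 min, 10.31 and 9.74 at 45 min and 11.44 and 11.33 at 270 min. In total RNA it read 11.12 and 10.94 at 0 min, 11.08 and 11.12 at 45 min and 11.42 and 11.19 at 270 min. Nascent arrays at 270 min stood clear of all earlier ones, and the total arrays spanned 10.94 to 11.42 over all 3 times. In nascent RNA the log2 difference at 270 min was 0.96 ± 0.20 over 0 min (1.94-fold, adjusted p = 0.00341) and 1.36 ± 0.20 over 45 min (adjusted p = 0.000266). In total RNA at 270 min over 0 min it was 0.27 ± 0.20, with a 95% interval of -0.17 to 0.71, and was not called (adjusted p = 0.411). The nascent response at 270 min exceeded the total response by 0.69 ± 0.26, which was not called either (adjusted p = 0.456).

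Tlr9, the receptor for unmethylated CpG DNA, was not called between any times. Its nascent level was 7.53 and 7.63 at 0 min, 7.11 and 7.32 at 45 min and 7.52 and 7.70 at 270 min. Total RNA gave 7.87 and 8.29 at 0 min, 7.83 and 7.93 at 45 min and 7.38 and 7.85 at 270 min. At 270 min over 0 min the log2 difference was 0.03 ± 0.21 in nascent RNA (95% interval -0.43 to 0.49) and -0.46 ± 0.21 in total RNA (95% interval -0.92 to 0.00).

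Tlr13, a mouse receptor for bacterial ribosomal RNA, had the largest fall of the 9 receptors in both fractions. In nascent RNA it read 11.47 and 12.10 at 0 min, 12.04 and 11.92 at 45 min and 8.64 and 8.61 at 270 min. Its total level was 11.33 and 11.35 at 0 min, 11.47 and 11.60 at 45 min and 9.15 and 8.51 at 270 min. The arrays at 0 and 45 min overlapped in nascent RNA, and all 4 arrays at 270 min lay below all 8 earlier ones. At 270 min over 0 min Tlr13 fell by 3.16 on the log2 scale in nascent RNA (SE 0.24, 8.93-fold lower, adjusted p = 4.53e-07). In total RNA it fell by 2.51 (SE 0.24, 5.69-fold lower, adjusted p = 6.08e-06). At 45 min it was 0.19 ± 0.24 in nascent RNA and 0.20 ± 0.24 in total RNA, neither called.

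Tlr12, outside the 10 receptors and known in the mouse as a sensor of a protozoan profilin, was measured and lay between 5.99 and 6.66 on all arrays, and in no group did both arrays exceed their background level. It was called in no comparison.

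Nascent over total RNA within a culture shows how bright a receptor is in RNA of the last 35 min relative to the whole pool, on a scale set by array normalisation. In unstimulated cells 2 receptors were higher in nascent RNA and 1 lower, with 7.58% of all genes higher and 8.42% lower. Tlr2 was 1.05 ± 0.18 (SE, n = 2 cultures, adjusted p = 0.000405) and Tlr4 0.83 ± 0.20 (adjusted p = 0.00553) higher on the log2 scale, and Tlr8 was -0.61 ± 0.18 (adjusted p = 0.026), a call lost with the arrays unpaired (adjusted p = 0.0761). With the experiment as a block 2 more were called, Tlr3 at -0.63 (adjusted p = 0.0142, against 0.0593 without it) and Tlr13 at 0.45 (adjusted p = 0.0434, against 0.158). Both were also called without the unstimulated culture of experiment 1 (Tlr3: -0.85, adjusted p = 0.0229, Tlr13: 0.76, adjusted p = 0.00564 and 0.00557 for its nascent and total array). Tlr3 was further called with no intensity trend (adjusted p = 0.0415) and with dim genes left out (adjusted p = 0.0433).

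At 45 min Tlr1 and Tlr2 were higher in nascent than in total RNA and Tlr3, Tlr8 and Tlr9 were lower, while 11.2% of all genes were higher and 14.2% lower. The median of all genes was 0.15 here and 0.04 under quantile scaling over all arrays. Tlr2 was 1.38 ± 0.18 (adjusted p = 1.18e-05), at 1.43 and 1.33 in the 2 experiments. Tlr8 was -1.08 ± 0.18 (adjusted p = 0.000151), at -0.77 and -1.38, and was not called without the experiment 2 culture (-0.77, adjusted p = 0.0646 and 0.0671). Tlr3 was -0.84 ± 0.22 (adjusted p = 0.00727), also not called without that culture (-0.59, adjusted p = 0.272 and 0.268). Nascent Tlr3 was above background on 1 of the 2 arrays there, so the size of its difference is limited by the background. Tlr1 was 0.60 ± 0.20 (adjusted p = 0.0349) and Tlr9 -0.67 ± 0.21 (adjusted p = 0.0225). Nascent Tlr9 there, at 7.11 and 7.32, lay not far above the background levels of 6.48 and 6.76 on those arrays. The Tlr1 call was lost without any 1 of the arrays at 45 min (0.59 and 0.60, adjusted p = 0.161 to 0.222) or 270 min (0.60, adjusted p = 0.0824 to 0.0827) and with unpaired arrays (adjusted p = 0.159). The Tlr9 call was lost without either 45 min culture (experiment 1: -0.61, adjusted p = 0.161, experiment 2: -0.73, adjusted p = 0.142 and 0.14) and under quantile scaling (-0.51 and -0.39, adjusted p = 0.092 and 0.187). Tlr13, at 0.45 ± 0.20 (adjusted p = 0.11), was called in the fit blocked by experiment (adjusted p = 0.0336) and without any 1 unstimulated array (0.45, adjusted p = 0.0157 to 0.0172).

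At 270 min Tlr4 alone was called, as higher in nascent than in total RNA by 0.75 ± 0.20 (adjusted p = 0.0122), with 6.24% of all genes higher and 9.03% lower. The call was lost without the experiment 1 culture (0.99, adjusted p = 0.0619 and 0.0586) and without the experiment 2 culture (0.52, adjusted p = 0.462 and 0.454). Tlr2, with the largest value of the 9 receptors at 45 min, was 0.31 ± 0.18 at 270 min and was not called (adjusted p = 0.337).

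The nascent response differed from the total response for no receptor at 270 min by limma (5 of 9 at an unadjusted p below 0.05, 1 by the fit with the experiment as a block), where 0.843% of all genes were called in either direction. The 5 were Tlr3 at 0.99 ± 0.31, Tlr8 at 0.69 ± 0.26, Tlr1 at 0.64 ± 0.28, Tlr13 at -0.65 ± 0.28 and Tlr2 at -0.74 ± 0.26. Their adjusted p values ran from 0.241 for Tlr3 to 0.628 for Tlr1. Tlr3 was called once the experiment was a block (adjusted p = 0.0309). Without the unstimulated culture of experiment 1, Tlr2 (-1.09, adjusted p = 0.000776 and 0.000696), Tlr3 (1.22, adjusted p = 0.0141 and 0.0142) and Tlr13 (-0.96, adjusted p = 0.0107 and 0.0106) were called. At 45 min Tlr1, at 0.96 ± 0.28 (adjusted p = 0.114), was called with the block (adjusted p = 0.0156) and without that same culture (0.93, adjusted p = 0.0457 and 0.0464).

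**Figure D3:**
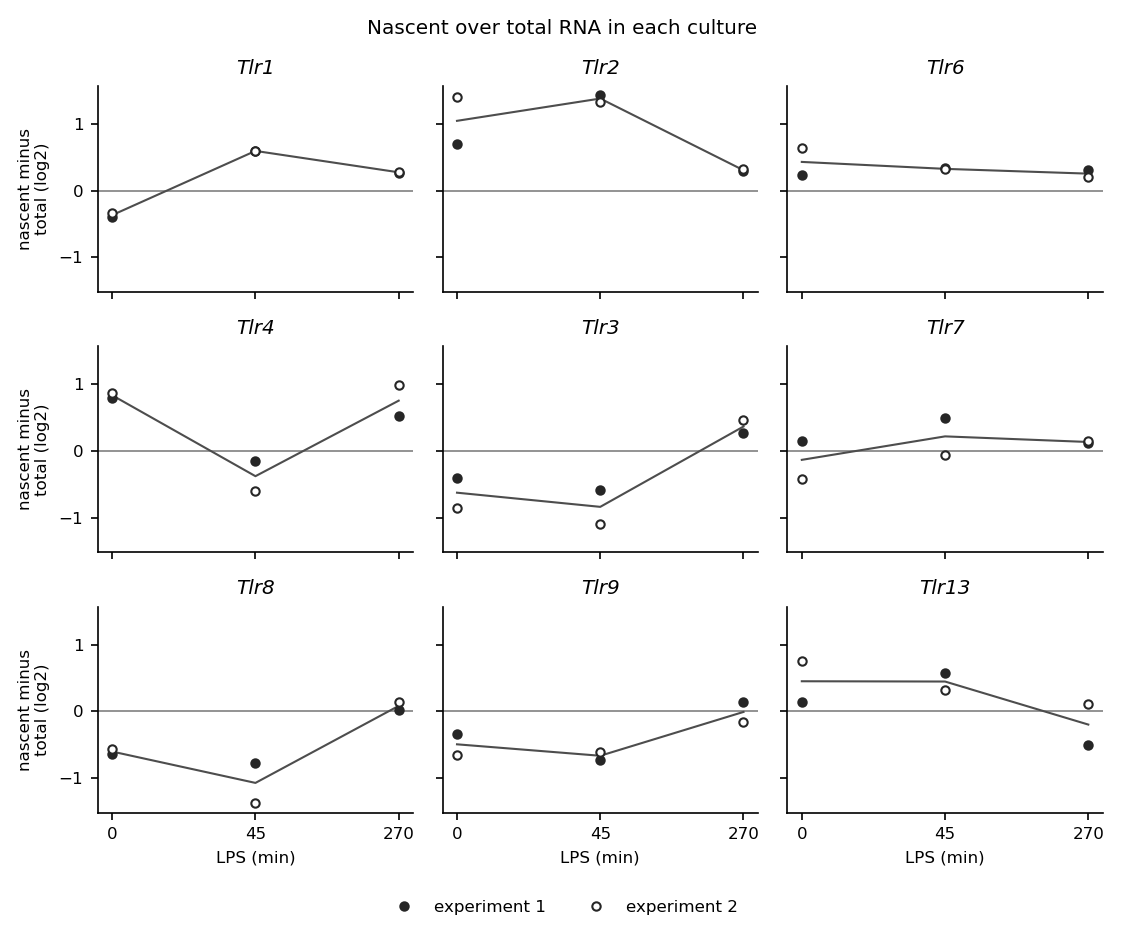
Nascent minus total level (log2) of each receptor in each culture against time of LPS (0, 45 and 270 min), with filled and open points for experiments 1 and 2 and a line through their mean. Tlr4 runs from a mean of 0.83 at 0 min through -0.38 at 45 min to 0.75 at 270 min, and Tlr2 lies above 0 in all 6 cultures.

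For each receptor called in nascent RNA at 270 over 0 min, the genes with the most similar profile were sought among 9969 genes at or above the median level, by Pearson correlation over the 12 arrays. The arrays share times and experiments, so these values are descriptions and carry no p. Tlr1 was most like Ifit1 (r = 0.993), Ifit2 (0.991) and Nt5c3 (0.990), and Tlr3 most like Ifi209 (0.995), Dck (0.992) and Bckdhb (0.989). Tlr2 was most like Ets2 (0.987), Stx11 (0.987) and Birc3 (0.977). For Tlr6 the closest were Itgav (0.986), Ttc39c (0.985) and Aftph (0.985), and for Tlr7 they were Cd86 (0.970), Maml2 (0.966) and Irak3 (0.963). Tlr8 was most like Samhd1 (0.952), Brip1os (0.947) and Nono (0.945). Among the receptors that fell, Tlr4 was most like Ro60 (0.973), Pms2 (0.967) and Tgfbrap1 (0.965), and Tlr13 most like Txnrd3 (0.992), St6gal1 (0.991) and Foxo3 (0.989). No 2 receptors shared a gene among these.

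Genes that carry, assist or restrain the receptors were described from lists of pathway members, of which 49 were measured. In nascent RNA at 270 over 0 min, 16 were higher and 11 lower, where 8.87% of all genes were higher and 14.2% lower. In total RNA 14 were higher and 5 lower, where 7.02% and 12% of all genes were. These shares of all genes also stand behind the counts for single lists below. The median difference was 0.20 in nascent RNA and 0.16 in total RNA, beside 0.12 and 0.07 for all genes. At 45 min, 6 were higher and 3 lower in nascent RNA (3.05% and 5.88% of all genes), and 2 higher and 0 lower in total RNA by limma (0.662% and 0.0201%). The 3 lower genes are a share near that of all genes.

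The 5 endosomal proteases, which trim the nucleic acid receptors into active form, were all called lower in nascent RNA at 270 min, beside 14.2% of all genes, with a median of -1.46. Nascent Ctsk, cathepsin K, was 8.12 and 7.57 at 270 min, against 11.08 and 10.94 at 0 min (-3.17 ± 0.36, adjusted p = 1.95e-05). Nascent Lgmn, the asparagine endopeptidase, was 9.80 and 9.76 at 270 min, against 12.48 and 12.69 at 0 min (-2.81 ± 0.17, adjusted p = 6.67e-08). In total RNA Lgmn was the 1 protease called lower (-0.62 ± 0.17, adjusted p = 0.0213). The nascent response of 4 of the 5 was below the total response, called by limma, where 144 of all 19938 genes were called lower (47 with the arrays unpaired).

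Of 6 genes for receptor folding and trafficking, nascent RNA had 1 higher and 2 lower at 270 min (8.87% and 14.2% of all genes), and total RNA had 3 lower (12% of all genes). Ap3b1, a subunit of the adaptor complex that sorts cargo to lysosome-related organelles, rose by 0.94 ± 0.20 in nascent RNA (adjusted p = 0.00293). Slc15a4, an endolysosomal transporter needed for signalling by Tlr7 and Tlr9, was -1.06 ± 0.20 (adjusted p = 0.00122). In total RNA Cnpy3, a chaperone cofactor for the receptors, was -1.36 ± 0.23 (adjusted p = 0.000646) and its relative Cnpy4 -1.27 ± 0.33 (adjusted p = 0.0132). At 45 min 2 of the 6 were lower in nascent RNA, Slc15a4 and Unc93b1, which escorts the endosomal receptors out of the endoplasmic reticulum (-1.05 ± 0.22, adjusted p = 0.00868). Unc93b1 is named here after its value was seen.

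Of 6 co-receptors and ligand carriers, nascent RNA held 2 higher and 1 lower at 270 min. Cd14, which hands LPS to Tlr4, was 11.93 and 11.02 in nascent RNA at 270 min, against 9.64 and 10.37 at 0 min (1.47 ± 0.36, adjusted p = 0.00908), and 2.19 ± 0.36 higher in total RNA (adjusted p = 0.000646). Cd36, a scavenger receptor that works with Tlr2 and Tlr6, was 7.36 and 8.51 in nascent RNA at 270 min, against 10.54 and 11.54 at 0 min (-3.10 ± 0.53, adjusted p = 0.000602). Of 6 adaptors 2 were higher in each fraction at 270 min and none lower. Myd88, the adaptor of all these receptors but Tlr3, was 1.05 ± 0.29 in nascent (adjusted p = 0.0162) and 1.10 ± 0.29 in total RNA (adjusted p = 0.0142). Pik3ap1, which links the receptors to PI3 kinase, was 0.64 ± 0.22 (adjusted p = 0.0479) and 0.82 ± 0.22 (adjusted p = 0.0156).

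Of 11 kinases and ubiquitin ligases, nascent RNA at 270 min had 4 higher and 1 lower, and total RNA 4 higher and 0 lower by limma, against 8.87% and 14.2% of all genes in nascent and 7.02% and 12% in total RNA. Ikbke, a kinase that acts on interferon regulatory factors, was 1.43 ± 0.23 in nascent RNA (adjusted p = 0.000388), and Tab1, a partner of the kinase Tak1, was -1.29 ± 0.30 (adjusted p = 0.00604). In total RNA Irak2, a kinase of the Myd88 complex, was 1.12 ± 0.34 (adjusted p = 0.0338) and Tab2, another partner of Tak1, 1.05 ± 0.17 (adjusted p = 0.000496). Of 9 genes that restrain the pathway, nascent RNA had 5 higher and 2 lower, and total RNA 5 higher and 1 lower. Socs1, an inhibitor of cytokine signalling, was 2.21 ± 0.36 in nascent RNA (adjusted p = 0.000476) and Tnfaip3, the deubiquitinating enzyme A20, 3.16 ± 0.19 in total RNA (adjusted p = 9.88e-08). Inpp5d, a lipid phosphatase, was 6.86 and 6.64 in nascent RNA at 270 min, against 10.93 and 10.66 at 0 min (-4.04 ± 0.23, adjusted p = 3.3e-08). The second array at 270 min was below background, so 1 of 2 arrays measured Inpp5d there and the background limits this difference. In total RNA it was -3.34 ± 0.23 (adjusted p = 2.99e-07).

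Of 5 transcription factors downstream of the receptors 2 were higher in each fraction at 270 min and none lower, where 8.87% of all genes were higher in nascent and 7.02% in total RNA. Irf7, which drives interferon genes after Tlr7 and Tlr9, was 11.46 and 11.20 in nascent RNA at 270 min, against 7.20 and 8.69 at 0 min (3.39 ± 0.40, adjusted p = 2.96e-05), and 2.95 ± 0.40 higher in total RNA (adjusted p = 0.000135). Rel, an NF-kappa B subunit, was 1.57 ± 0.22 in nascent RNA (adjusted p = 0.000104) and 1.89 ± 0.22 in total RNA (adjusted p = 2.86e-05).

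**Figure D4:**
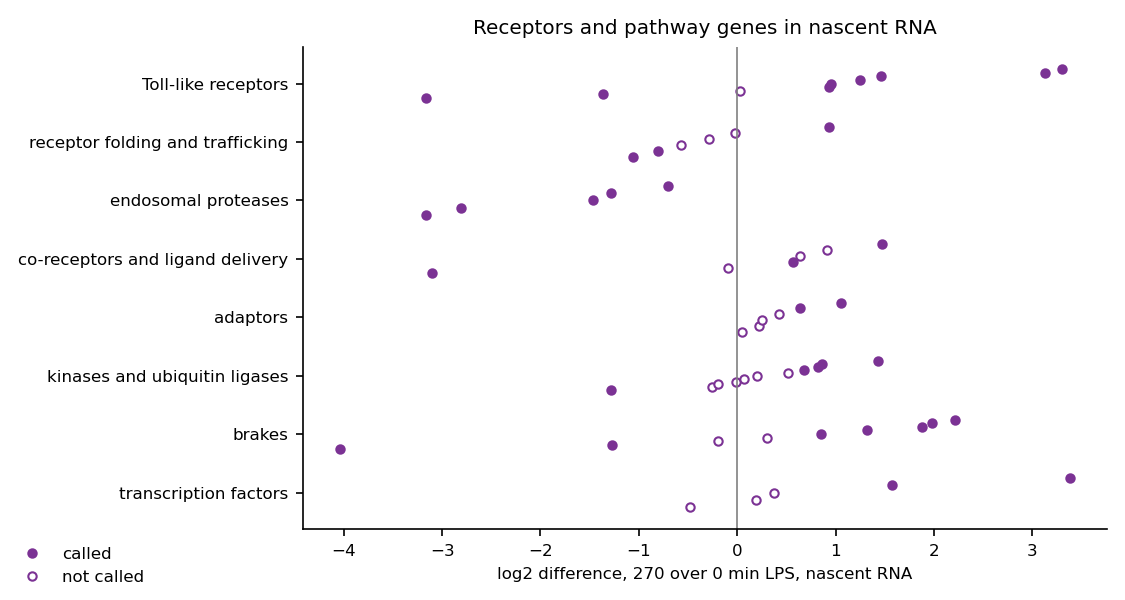
Log2 difference at 270 over 0 min of LPS in nascent RNA for the 9 receptors and for the genes of 7 pathway lists, 1 point per gene, filled where called at an adjusted p below 0.05. The 5 endosomal proteases all lie below 0, and the receptors lie on both sides, from -3.16 to 3.30.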

How the data were processed

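The deposited values are linear intensities, 1 for each probe set on each array. Per the submitters' processing notes the authors used RMA and the Affymetrix Expression Console. Software versions, and whether all arrays were scaled jointly, were not given in these sources. The deposited arrays did not share 1 distribution of values. Their interquartile ranges ran from 2.24 to 3.02 and their highest intensities from 14259 to 29578. Per the labels' protocols, 100 ng nascent and 200 ng total RNA entered the amplification on Mouse Gene ST 1.0 arrays. RMA compresses changes of dim genes, and its scaling can remove shifts shared by all genes. Differences in spread between these arrays remained, and the quantile scaling alternatives even them out. The number of arrays, 2 per group, limits the precision.

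Of 35557 probe sets, 21789 had 1 symbol, 1621 several and 12147 none in the annotation given. Log2 was taken, and the probe set with the highest mean was kept for each of 19938 genes, 999 of which had more than 1. No filter on level was applied. With limma 3.58.1 in R 4.3.3 (lmFit, eBayes with intensity trend), time comparisons used 6 group means over all 12 arrays. Nascent over total RNA and the difference between their responses used the 6 within-culture differences. P values were adjusted over all genes. The fit code was run on simulated data with noise partly shared within each culture and no effect of experiment. Correlations between arrays of the same experiment, given below, differ from that setting. That run therefore does not gauge the error rate in these data. Tables used Python 3.11.15 with pandas 2.3.3, and figures matplotlib 3.10.9.

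The labels give the experiment (1 or 2) as the replicate number, which pairs the arrays. Deviations of same-numbered arrays from their group means correlated at -0.29 to 0.64. For nascent and total arrays of the same culture the value was -0.05 at 0 min, 0.17 at 45 min and 0.42 at 270 min. Arrays of the same fraction at different times, from different cultures, gave -0.05 to 0.64. Nascent and total arrays of different times, also from different cultures, gave -0.29 to 0.44. All same-culture values lay within that range. A deviation shared within cultures was thus not told apart from one shared by the experiment number. Alternatives were the experiment as a block, unpaired arrays, no intensity trend, quantile scaling in 2 ways, dim genes left out, mean probe sets, and each array left out in turn, where a lone array is assumed to vary like the other groups.

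Up to 2 called genes per pathway list and fraction with the largest difference at 270 over 0 min are named, and for likeness the 3 best correlated genes. Of the lists, Tlr11, Irak4, Traf3, Chuk, Il1rl1 and Nfkb1 were not analysed here. The receptors and lists were chosen with earlier results of these data known.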

Additional observations from a re-analysis of the deposited data

Results flagged for a closer look

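The nascent and total responses of Tlr4 at 45 min of LPS differed by the test of the difference itself. Nascent Tlr4 was -1.37 on the log2 scale at 45 over 0 min and total Tlr4 was -0.16, a difference of -1.21 ± 0.28 (SE from limma, 2 cultures per time, adjusted p = 0.0434), with the same sign in both experiments. Over the alternatives run the difference ranged from -1.44 to -0.98, and its adjusted p from 0.00024 to 0.649. No other receptor's responses were called as different at 45 or 270 min (2 of 9 and 5 of 9 at an unadjusted p below 0.05, and 2 and 1 called with the experiment as a block).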

How the results depend on the processing

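Of 99 receptor values, 40 were called. No alternative turned the direction of a called value. The block, unpaired arrays, no intensity trend, dim genes left out and mean probe sets leave a receptor's difference itself unchanged. Its direction could turn only under quantile scaling or without an array of the groups compared. For within-culture differences, leaving out either array of a culture removes the same pair. Over alternatives other than leaving out an array, 619 of the recomputed values kept their side of the threshold, 9 became called and 11 lost the call, and over left-out arrays 1131 kept it, 17 became called and 40 lost it. With the experiment as a block, the number of receptors called was 5 for nascent over total RNA at 0 min (3 without it), 2 for the difference between responses at 45 min (1 without it) and 1 at 270 min (0 without it), and the pairing changed the count of no other comparison by over 1.5 times. The difference at 45 min was called by limma for 0 receptors with unpaired arrays and 0 under either quantile scaling (2 at an unadjusted p below 0.05 in each). Leaving out 1 array at a time gave 2 to 3 called receptors for nascent RNA at 45 min over 0 min, 8 at 270 over 0 min and 5 to 6 at 270 over 45 min. Total RNA gave 1, 6 to 7 and 5 to 6 for the same comparisons. Nascent over total RNA gave 3 to 5 at 0 min, 1 to 6 at 45 min and 0 to 1 at 270 min, and the difference between responses 0 to 2 at 45 min and 0 to 3 at 270 min. Over all genes, the block raised the calls in nascent RNA at 45 min to 844 higher and 1838 lower, against 609 and 1172 without it. Those counts fell to 393 and 256 without the nascent array of experiment 2 at 0 min, to 408 and 453 without that of experiment 1 at 45 min, and to 343 and 284 without that of experiment 2 at 45 min. Nascent over total RNA at 45 min fell to 745 and 1546 without the nascent array of experiment 1 at 45 min and to 857 and 1342 without that of experiment 2, against 2226 and 2834. For the difference between responses the block gave 289 higher and 816 lower at 45 min, against 95 and 113 without it. At 270 min the block gave 112 and 379 for that difference, against 24 and 144. Unpaired arrays gave 3 and 0 at 45 min and 2 and 47 at 270 min, and quantile scaling over all arrays 18 and 88 at 270 min. Without the nascent array of experiment 1 at 45 min, 0 and 0 genes were called for it at 45 min by limma (2705 at an unadjusted p below 0.05), and without the total array of experiment 1 at 0 min 375 and 1350. The causes were not tested. Nascent Tlr3 before 270 min, near background, limits its nascent folds, and Tlr5 was not analysed.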
